A study of Mus musculus with 3 samples.

Results

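Kmt2c encodes a histone methyltransferase, also called MLL3, and its RNA was examined here in 3 litters of mouse embryos at the 2-cell stage. The gene was taken as mm9 chr5:24777000-25005000 (minus strand). It was chosen by its coverage: it holds a run of 7 windows of 10 kb, from 24.79 to 24.86 Mb, each with at least 1 alignment per kb per 1000000 nuclear alignments (written RPKM from here on) in every litter. The region holds 22 whole windows of the 272592 on nuclear chromosomes. Since these values chose the gene, its level and its windows are given as a description, with no test.

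The embryos were collected at embryonic day 1.5, and the embryos of 1 litter made up 1 library. All mothers were LSD1 FL/FL, with 2 floxed copies of a histone demethylase gene, and negative for ZP3::Cre, a transgene that expresses a recombinase in growing oocytes. There was no other group to set these litters against. The females were of mixed strain. The labels name the fathers as wild type CB6 males in one field and as C57/Bl6J mice in another, and the difference was not resolved. The number of embryos in a litter is not given in the sources used here, so each value is a pool of embryos. In such bulk samples, fewer cells with a transcript and less RNA per cell cannot be told apart. The RNA was amplified by SPIA, which makes many cDNA copies at constant temperature, and the cDNA was sheared before Illumina libraries were made.

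KMT2C belongs to the COMPASS family, large complexes that add methyl groups to lysine 4 of histone H3. With its paralogue KMT2D it is known for placing the single methyl mark found at enhancers. Zinc-binding PHD fingers lie along the protein, and the catalytic SET domain lies at its carboxyl end, so the 3′ exons of the gene encode the catalytic part. A 2-cell mouse embryo holds RNA stored by the oocyte together with RNA from its own first transcription, and these libraries do not separate the sources.

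The files give coverage, the count of reads that overlap a base, made of ungapped alignments of 72 bases. A read that crosses an exon junction by more than a few bases cannot align without a gap. Exons shorter than an alignment and the margins of all exons thus lose reads. Of the 59 exons of the transcript with the longest Kmt2c coding sequence (GENCODE M21), 3 are shorter than 72 bases. They are shown because the whole exon is too short for an alignment to lie within it. They stand 5′ to 3′ on the minus strand, with their GRCm38 places at chr5:25352227-25352292, chr5:25329241-25329273 and chr5:25304678-25304741.
exon 22: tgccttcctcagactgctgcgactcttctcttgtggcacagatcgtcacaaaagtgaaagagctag
exon 30: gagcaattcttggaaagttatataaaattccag
exon 41: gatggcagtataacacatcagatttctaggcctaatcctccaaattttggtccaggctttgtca
Next to these stands a stretch of 120 bases from exon 36, bases 57 to 176 of that exon, centred on base 117, where the mean coverage of the 3 litters was highest (GRCm38 chr5:25315700-25315819, minus strand). Capitals mark a run of 15 CAG or CAA triplets, 45 bases long.
exon 36: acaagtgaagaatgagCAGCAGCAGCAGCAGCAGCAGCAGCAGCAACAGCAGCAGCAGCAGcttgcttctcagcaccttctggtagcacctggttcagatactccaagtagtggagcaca

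Litters 1, 2 and 3 had 31301, 35252 and 62173 alignments in the region. The nuclear totals were 34014013, 32431630 and 40474940. The level of the region was 4.04, 4.77 and 6.74 RPKM, a mean of 5.18 ± 1.40 (SD, n = 3). Litter 3 was highest and litter 1 lowest. A count of 0 over a 10 kb window would still allow up to 0.00882, 0.00925 and 0.00741 RPKM (3 alignments), a limit that covers counting error only. Alignments in the region began at 11512, 13733 and 18025 different positions. The remaining alignments, 63.2%, 61.0% and 71.0% in litters 1 to 3, repeated a start already used, against 72.2%, 65.0% and 74.0% over all nuclear sequence. The libraries carry no molecular identifiers, so repeats cannot be told apart from separate molecules. The files carry no strand, so RNA from the opposite strand would be counted as well.

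Of the 22 windows inside the region, 11 reached 1 or more in all litters. Over all nuclear windows the share was 3.16%, and nothing is read from the difference, because the rule used these values. Counted per litter, 13, 17 and 17 windows reached 1. The run of 7 windows averaged 9.65, 11.4 and 14.8 RPKM in litters 1 to 3 (11.9 ± 2.64, SD, n = 3) and held 71.4% of the region's alignments. Among the 6563 runs of such windows in the nuclear genome, 22 were at least 7 windows long, and 10 of these were longer than the run in Kmt2c. By density the Kmt2c run ranked 9 among the 22. The highest window, at 24.82 Mb, had 22.7, 34.9 and 56.2 RPKM. At the 5′ side of the run the window at 24.86 Mb had 1.39, 1.21 and 0.877 and so missed the threshold in litter 3 alone. At the 3′ side the window at 24.78 Mb had 3.34, 0.456 and 1.84 and missed it in litter 2 alone. Of the windows that passed, the one at 24.89 Mb came closest to the limit, at 1.14, 2.47 and 3.12 RPKM in litters 1 to 3.

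**Figure D1:**
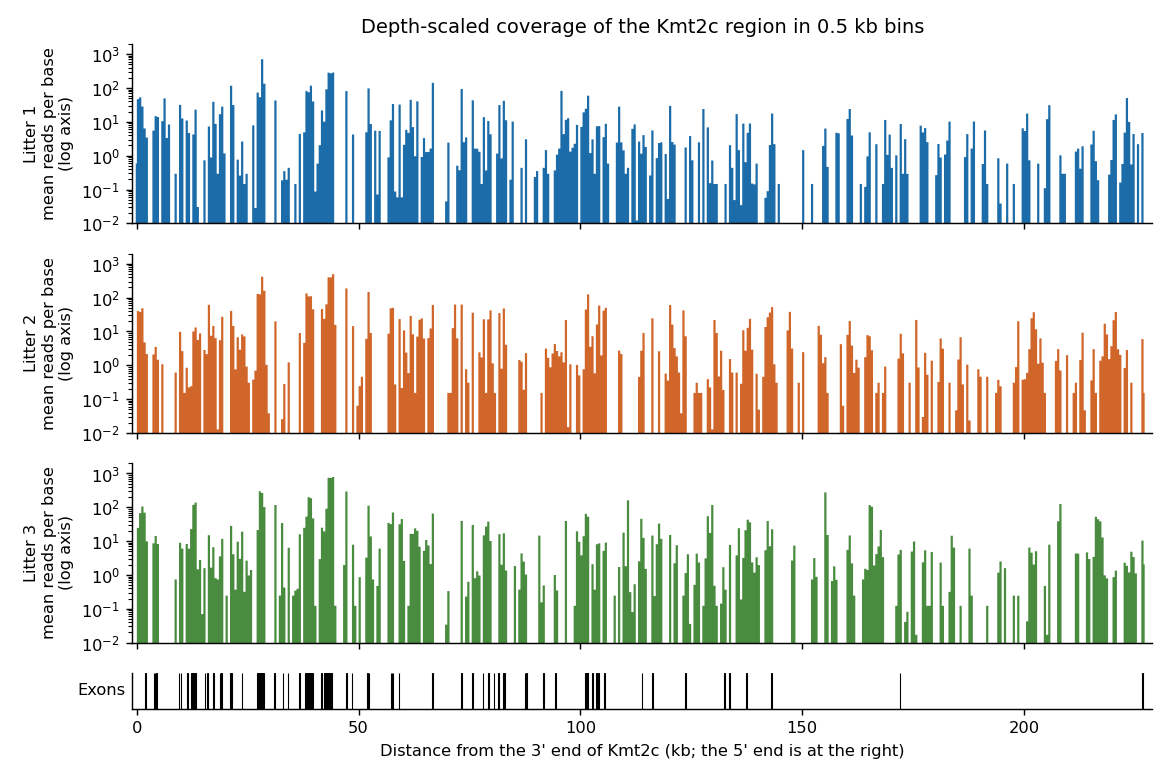
Mean coverage per base in bins of 0.5 kb (log axis, scaled for depth) against the distance from the 3′ end of Kmt2c in kb, with a panel for each litter and the 59 exons as black marks. The tallest bins stand over the long exons between about 20 and 50 kb in all 3 litters, and much of the wide intron space to the right has low or no coverage apart from islands, most of them in litter 3.

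Coverage in every litter was arranged in discrete blocks with the lengths and spacings of the Kmt2c exons. A block is a stretch with at least 10 unscaled reads over each base in all 3 litters, with gaps of up to 10 bases bridged and at least 50 bases long. There were 57 blocks, covering 13705 of the 228001 bases. No annotation of mm9 was used, so the exons were laid on the coverage as a rigid ladder of lengths and spacings from GRCm38. At the best position, 23 of the 56 exons of 72 or more bases had a block with both edges within 10 bases of the exon's edges, against 2 at the next best position. Placed on their own, the middle and the 5′ groups of exons gave 15 of 18 and 5 of 19 matches, against 2 at the next best position of each, and took the same position as all exons. The 3′ group gave 3 of 19, against 2 at its next best position. Positions from -1 to 3 bases away from that of all exons matched it equally well, so it barely placed itself. Matched blocks differed from their exons by -19 to 10 bases in length, with a median of 0, and the match rule itself limits this range.

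Of the 57 blocks, 47 overlapped an exon, 2 lay in a longer 3′ UTR annotated for another Kmt2c transcript, 1 lay on the pseudogene Hspe1-ps3 inside an intron, and 7 lay on none of these. In the other direction, 43 of the 59 exons overlapped a block. All 3 litters had coverage in 54 exons. The 5 exons with none in at least 1 litter were the short exons 22 and 30 and exons 6, 16 and 17. Exon 6 had 0.686 reads per base in litter 1, 0 in litter 2 and 1.73 in litter 3. Exon 22 had 0, 0.766 and 0 and exon 30 had 0, 0.167 and 0, while exon 41, 64 bases long, had 2.10, 2.20 and 3.56. These last 3 are the exons printed above, and any coverage in them comes from alignments that run into the neighbouring introns. Coverage here and below is in reads per base, with each litter scaled to the mean nuclear total (factors 1.048, 1.099 and 0.881), unless it is called raw.

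At the borders the change from intron to exon was abrupt in the median over exons. The median over 54 exons was 0 in all litters at 10 bases outside either edge. It was above 0 in all litters from 4 bases outside the 5′ edge and 5 bases outside the 3′ edge. At 50 bases inside the 5′ edge it was 58.7, 71.98 and 57.2 reads per base in litters 1 to 3, and at 50 bases inside the 3′ edge it was 56.1, 63.7 and 72.2. Whole alignments within an exon must give a slope over its first bases. Coverage just outside the edges comes from other alignments, which run over the edge and add to the coverage inside. The median leaves out coverage beside a minority of exons, which was highest in litter 2. Intron bases within 100 bases of an exon averaged 1.13, 4.61 and 2.30 reads per base in litters 1 to 3. Coverage reached 12.9%, 31.1% and 17.1% of them.

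**Figure D2:**
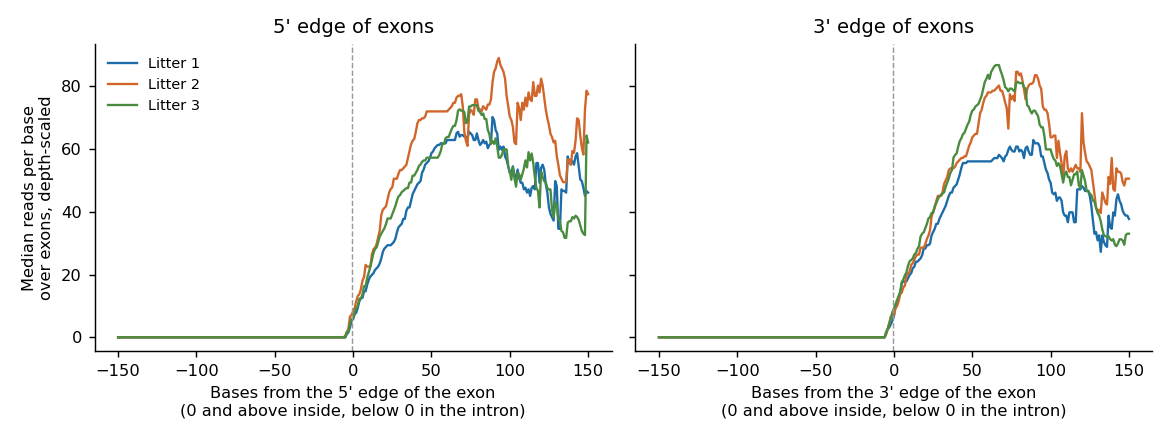
Median coverage over exons (reads per base, scaled for depth) against the distance in bases from the 5′ edge (left) and the 3′ edge (right) of the exons, with intron positions below 0 and a line per litter. All 3 lines lie at 0 up to 10 bases outside the edge, leave 0 within the last 5 bases of the intron, and reach between about 56 and 72 at 50 bases inside the exon.

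Coverage of exons was far above that of introns in each litter. Exons had 120, 138 and 180 reads per base (146 ± 30.6, SD, n = 3) and introns 2.36, 3.13 and 5.33 (3.60 ± 1.54). Exons thus exceeded introns by 50.9, 44.1 and 33.7 fold, and the lowest of these exon averages lay well above the highest intron average. Single exons and introns did overlap: 49 of the 59 exons averaged above every intron. Put as a percentage, introns had 1.97%, 2.27% and 2.96% of the exon coverage (2.40% ± 0.512). As alignments that lie whole inside an exon, counted per kb of possible starts, the exon level was 61.4, 70.4 and 92.5 RPKM (74.8 ± 16.0).

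Because introns span 210170 bases and exons 14967, introns still held a sizeable part of the aligned bases. Exons held 72.8% ± 4.06 of the region's aligned bases, introns 24.3% ± 3.76 and the longer 3′ UTR 2.89% ± 0.485 (SD, n = 3). Sequence outside the blocks held 21.2%, 23.3% and 31.3% in litters 1 to 3 (25.3% ± 5.34). This share was 46.3% with each start position counted once and 41.3% with a block minimum of 50 reads. Coverage in the 20 kb beyond the 5′ end was 0.347, 1.69 and 1.77 and in the 20 kb beyond the 3′ end 0.898, 2.02 and 0.0886 reads per base. Introns were above both flanks in every litter, by 1.55 fold at the least, in litter 2 against the 3′ flank.

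Exons were covered nearly throughout in each litter, and introns in part. Coverage reached 94.5%, 94.4% and 97.8% of exon bases in litters 1 to 3, and 21.9%, 25.01% and 25.1% of intron bases. Of exon bases covered in any litter, 91.8% were covered in all 3. Of intron bases covered in any litter, 9.24% were covered in all 3 and 63.9% in a single litter. With nearly all exon bases covered in each litter, these shares do not compare how well exons and introns recur. Coverage of the 59 exons correlated at Pearson's r of 0.802 between litters 1 and 2, 0.765 between 1 and 3 and 0.786 between 2 and 3 on the log2 scale, whereas the 58 introns gave, in the same order, 0.203, 0.486 and 0.208. These are correlations across parts of 1 gene, which share their libraries and are not independent replicates. One litter exceeded both others by more than 5 fold in 22 of 58 introns and in 6 of 59 exons. As 26 of the 58 introns averaged under 1 read per base, the correlations and these counts do not compare introns and exons at like depth.

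**Figure D3:**
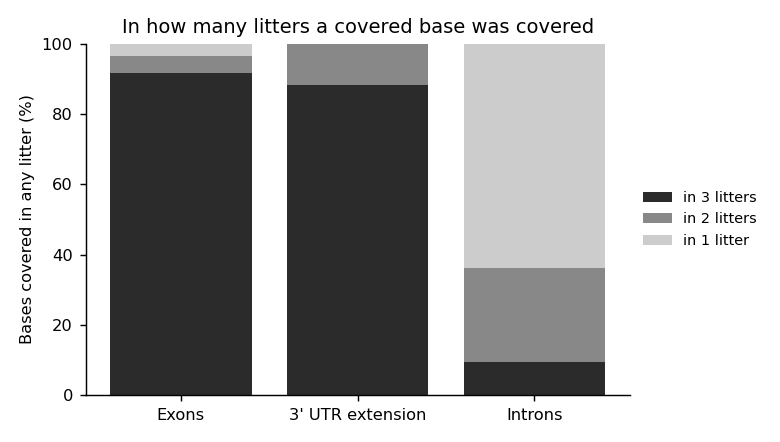
Share of the bases covered in any litter (%) that were covered in 3, 2 or 1 of the litters, for exons, the longer 3′ UTR and introns. The bar for exons is mostly bases covered in 3 litters (91.8%), and that for introns mostly bases covered in 1 litter (63.9%). Each litter alone covered between 94.4% and 97.8% of exon bases.

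Intron coverage came in islands that differed between litters. Litters 1, 2 and 3 had 5, 2 and 11 intron stretches with at least 100 raw reads over each base, and both other litters had a mean under 10 in 3, 1 and 10 of them. Exon stretches of the same depth numbered 23, 29 and 25, of which 0, 0 and 1 were as low in both others. The deepest intron island lay at 24932586 to 24933039, in the window at 24.93 Mb, with mean raw coverage of 6.13, 1.498 and 362 in litters 1 to 3. Another, at 24985412 to 24985728, had 0.227, 1.59 and 286. Most islands of this depth were thus in litter 3, the litter with the highest level. The limit is in raw reads, and litter 3 also had the highest nuclear total, so the same limit is easier to reach there. Litters 1 and 2 both have an island on the pseudogene Hspe1-ps3.

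Of the 58 introns, 26 averaged under 1 read per base, with a median over introns of 1.19, against 49.9 over exons. Intron 27, 7512 bases long, stood highest and was even across litters, at 8.75, 9.30 and 10.9 reads per base. It holds the longest block outside the exons and the 3′ UTR, 445 bases at 24839199 to 24839643, with 46.4, 38.4 and 26.0. Other introns were uneven. Intron 3 had 1.23, 12.4 and 9.82, and intron 14 had 12.0, 2.61 and 6.89. In introns 1 to 10, which make up 121057 bases at the 5′ side and include one of 54481 bases, coverage was 2.24, 3.25 and 7.27, which was 11.7% ± 5.63 of the exons beside them. In introns 31 to 40 it was 0.657, 2.06 and 1.84, or 0.611% ± 0.249 of the exons beside them. Taken in 6 such groups along the gene, introns averaged between 1.52 and 4.73 reads per base and the exons beside them between 38.1 and 247.

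Of the 8 blocks that overlapped neither an exon nor the longer 3′ UTR, 3 had alignment counts that recur elsewhere in the genome. The Hspe1-ps3 block, at 24897566 to 24897721, had 95.7, 108 and 49.0 reads per base, and at 70.6% of its alignments the start counts of all 3 litters were equal at 1 other place. For the block at 24938100 to 24938315, with 51.1, 47.7 and 34.3, this was 88.0% at 1 place. A block of 69 bases at 24938686 had such equal counts at 465 places. No place with equal counts at 50% or more of the alignments was found for the other 5, including the block in intron 27. Gm18343, the other pseudogene inside the gene, had raw coverage of 0, 1.06 and 4.71.

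At the 3′ end the coverage ran on past the end of the coding transcript and stopped close to the end of the longer annotated 3′ UTR. The first block, 1191 bases from 24777635 to 24778825, began 18 bases inside that end, at 54.1, 50.7 and 69.4 reads per base. It was among the most even blocks, with a coefficient of variation (CV, the SD over the mean of the litters) of 17.2%. In the 500 bases beyond the annotated end the coverage was 0.547, 0.0725 and 0.0264. The block next to it, 83 bases at 24778928, was uneven, at 11.6, 25.7 and 134. Over its 1811 bases the longer 3′ UTR had 38.2, 36.8 and 73.0 reads per base, which is 31.8%, 26.7% and 40.6% of the exon mean. Coverage reached all of these bases in litters 1 and 3 but 88.2% of them in litter 2, so there it was not unbroken.

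Along the chromosome the window values were lower on the 5′ side of the run. So were the exon bases per window and, by less, the coverage per exon base. The 7 windows of the run had 11.9 ± 2.64 RPKM and the 14 windows on their 5′ side 2.01 ± 0.906 RPKM (SD, n = 3 each), a ratio of the means of 5.94. The run also holds 1493 exon bases per window and the 5′ side 225, a ratio of 6.65. Across windows, exon bases and alignment density correlated at Spearman's rho of 0.747, given as a description. Per base of exon, exons 21 to 52, which lie in the run, had 155, 172 and 237 reads and exons 2 to 20 had 34.5, 76.2 and 45.6, a ratio of the means of 3.60. This ratio is not corrected for reads lost at exon margins, which weigh more in short exons. Because the run was chosen by its coverage, the direction of these coverage differences is in part set by the choice. They are given as a description. Exons 53 to 59, at the 3′ end itself, averaged between 15.0 and 49.9, against 52.1 ± 21.6 for exons 2 to 20.

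The slope of log2 coverage of blocks on the distance from the 3′ end, counted in kb of block sequence, was -0.0547, 0.0709 and -0.0337 per kb in litters 1 to 3, a mean of -0.0058 ± 0.0673 (SD, n = 3). It was below 0 in 2 litters and above 0 in litter 2, and the mean was smaller than its spread. Without blocks under 200 bases the mean slope was -0.0740 ± 0.0411 per kb, larger than its spread. Over the 59 exons the slopes were -0.0853, 0.0629 and -0.0661. With 3 litters a sign-flip permutation test cannot go below 0.25, and none is reported. Over all blocks and over all exons the litters shared no direction. The run chosen by its coverage lies at the 3′ side, so the direction of a slope is in part set by the choice.

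Coverage was highest in the middle of the transcript. Most of this middle part lies in the run, so its height is in part set by the choice of the run. Cut into 5 equal lengths from the 5′ end, the spliced transcript averaged 48.8 ± 22.4, 275 ± 84.4, 181 ± 71.4, 175 ± 22.1 and 49.96 ± 23.5 reads per base (SD, n = 3). The 3 middle lengths exceeded the 2 at the ends by 4.32, 4.05 and 4.38 fold in litters 1 to 3. The 5′ end length had 27.6, 72.2 and 46.6, and the 3′ end length had 52.6, 25.3 and 72.1. Cut into 2 equal lengths, the transcript had 121, 175 and 237 reads per base on the 5′ side and 119, 101 and 122 on the 3′ side. The 5′ side over the 3′ side was 1.02, 1.74 and 1.93 fold.

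**Figure D4:**
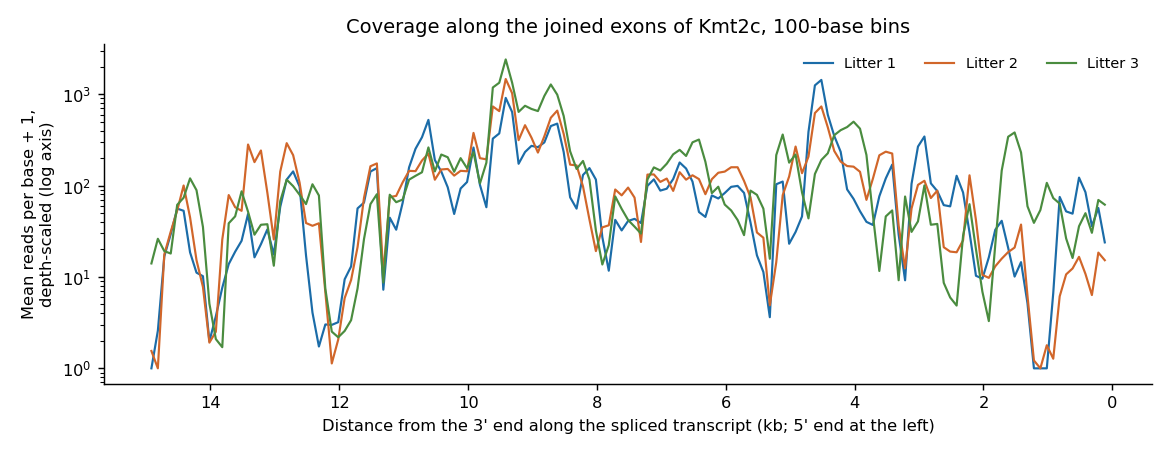
Mean coverage (reads per base + 1, scaled for depth, log axis) in bins of 100 bases along the joined exons, against the distance in kb from the 3′ end of the transcript, with the 5′ end at the left and a line per litter. All 3 lines have a peak between 8 and 10 kb, the highest point of litters 2 and 3. Litter 1 is highest at about 4.5 kb, with 1435 reads per base, against 735 in litter 2 and 190 in litter 3. The lines also part from each other in the last 3 kb at the 3′ end.

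Of the 18 exons above 100 reads per base on average, 17 lay among exons 20 to 46, and the other was exon 10. Exon 35 was highest, at 227, 525 and 824 (183 bases, 41.5% GC). Exon 36, of 1896 bases, had 257, 369 and 648. Exon 43, of 1707 bases, had 294, 251 and 207 and was one of the evenest exons, with a CV of 17.3%. The litters did not rank alike: exons 35 and 36 were highest in litter 3, while exon 43 and exons 26 and 27 were highest in litter 1, at 359, 203 and 153 for exon 26 and 393, 170 and 196 for exon 27. Exon 38, of 1820 bases, was lower than exons 36 and 43, at 89.6, 114 and 141.

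The blocks give the places of these exons in mm9. Exon 36 was seen as 3 blocks, of which the longest was 1572 bases at 24820130 to 24821701, and exon 35 as one of 188 bases at 24824805 to 24824992, where coverage was 222, 513 and 807. Exon 38 was seen as the longest block of all, 1764 bases at 24815447 to 24817210. Exon 43 held 2 blocks, and the longer ran over 1395 bases from 24804987 to 24806381, at 333, 261 and 245. Exons 27 and 26 were seen as blocks of 176 bases at 24844226 and 139 bases at 24850717. Exon 14, of 704 bases, was the longest of the 5′ side, and its block of 464 bases at 24878820 to 24879283 had 91.7, 169 and 86.3. Next to the blocks of the longer 3′ UTR, the blocks on the last exons were short and uneven. The block on exon 59, 73 bases at 24779476, had 23.7, 18.4 and 81.8, and that on exon 58 had 61.6, 21.1 and 78.4. That on exon 56 had 113, 15.8 and 70.3, so litter 2 was lowest in each block. Over the whole of exon 59 litter 1 was lowest, at 15.3, against 16.0 in litter 2 and 71.9 in litter 3. Near the 5′ end a block of 88 bases at 24942561, in no exon, had 13.6, 13.1 and 113 and overlapped an intron island of litter 3, while the block on exon 2, at 24949639, was even, at 52.4, 43.2 and 33.4.

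The 4 exons of 1000 or more bases are exons 36, 38, 43 and 52. They make up 43.7% of the transcript and held 68.0% ± 4.98 of the bases aligned to exons (SD, n = 3). These shares are not on like terms, because exon margins lose reads and weigh less in long exons. Of 10828 possible starts for alignments whole inside an exon, exons 36, 38, 43 and 52 have 1825, 1749, 1636 and 1046.

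Exon 1, which carries the start of the transcript and has 70.2% GC, had 6.76, 8.81 and 17.1, and its block of 78 bases, at 25004237 to 25004314, is the last before the 5′ end. Exon 2 had 49.6, 40.5 and 31.1 and exon 3 had 60.8, 93.5 and 82.7. Exons 15 to 18, in the 5′ part, averaged between 1.36 and 7.49. Over the 52 exons with at least 10 possible alignment starts, GC content and level had a Spearman's rho of -0.248, and length and level 0.0732, as a description. Level here is counted per possible start. Coverage per base is not corrected in this way, and over all 59 exons its rho with length was 0.445.

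Litters differed at both sides of the transcript, in different exons. Among exons of 72 or more bases the largest CV was that of exon 52, of 1117 bases, which had 12.6, 10.8 and 129, a CV of 133%, from 186, 152 and 2246 alignments. Exons 53 to 57 were lowest in litter 2, at 4.003, 10.8, 13.2, 10.8 and 2.04, against 58.7, 47.4, 92.7, 86.6 and 19.8 in litter 1 and 53.4, 22.1, 26.5, 52.3 and 23.2 in litter 3. Exons 10 and 11, near the 5′ side, were highest in litter 2, at 243 and 197, against 37.1 and 16.3 in litter 1 and 43.2 and 29.0 in litter 3. Litter 1 led in 18 exons, litter 2 in 19 and litter 3 in 22. Deviations were alike in neighbouring exons and not 5 exons apart. An exon's deviation from the mean of the litters (log2 scale) correlated with that of the next exon at r of 0.492, 0.571 and 0.348 in litters 1 to 3, and with that of the exon 5 places on at -0.0797, -0.0136 and -0.0329.

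**Figure D5:**
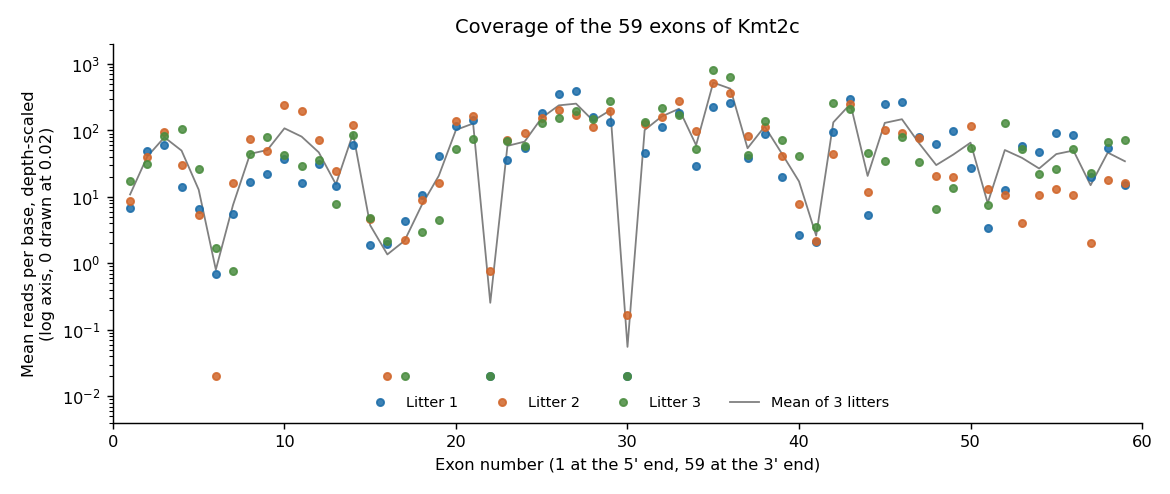
Mean coverage (reads per base, scaled for depth, log axis, with 0 drawn at 0.02) of each of the 59 exons in order from the 5′ end, with a point per litter and a line through the mean. Exons 20 to 46 hold most points above 100, exons 22 and 30 are at or near 0, and the litters lie far apart at exons 10, 11 and 52.

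Coverage within a long exon was uneven, and its shape recurred between litters in some exons and not in others. In exon 36 raw coverage ran between 2 and 986 in litter 1, between 10 and 1452 in litter 2 and between 8 and 3111 in litter 3. Its shape across bases correlated at r of 0.802 between litters 1 and 2, 0.886 between 1 and 3 and 0.945 between 2 and 3 on the log2 scale. The peak of exon 36 lay at base 164 in litter 1, 178 in litter 2 and 69 in litter 3. That of litter 2 falls just outside the printed stretch. The stretch printed above, with the CAG run near its start, averaged 857, 1322 and 2744 raw reads. Whether reads from other CAG runs add to it was not tested. In exon 43 the peak reached 1638 in litter 1, at base 488 of the exon, and 802 in litter 2, at base 486, but in litter 3 the peak of 636 lay at base 1040, and the correlation of shapes with litter 3 was 0.0898 and 0.118. In exon 52 the shapes of litters 1 and 2, each with under 200 alignments, correlated at 0.889 and those of litter 3 with them at -0.0044 and 0.227.

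In windows, the spread between litters was close to that of nuclear windows of like depth. The median CV was 48.1% over the 57 blocks (12.4% to 128%), 58.1% over the 59 exons and 102% over the 58 introns. With each start position counted once, it was 19.6% over blocks. For the 22 windows of 10 kb it was 44.8%, against 42.7% over 4473 nuclear windows of like depth. For the 7 windows of the run it was 23.4%, against 29.2% over 3181 nuclear windows of like depth. Since the run was chosen for being at 1 or more in every litter, its smaller spread is in part set by the choice.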

How the data were processed

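RNA of 3 litters was measured. Per the submitters' processing notes, the aligner was Bowtie and the build mm9. Its version, mismatch limit and handling of multiple matches were not given in the sources used here. What the authors deposited is coverage (signal): whole numbers of reads per base, with no scaling, per the file headers. Per the labels each litter was collected separately, so the spread is over litters.

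Nuclear coverage split exactly into 72-base alignments, and each start was recovered. Strand is unknown. Window and region densities are RPKM of nuclear alignments, which numbered 34014013, 32431630 and 40474940. A pseudocount of 1 was added to coverage on the log2 scale.

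Exon lengths, spacings and sequences come from GENCODE M21 (GRCm38) and were placed on mm9 coverage by block edges, with no conversion of coordinates. An mm9 annotation was not used here, so other H3K4 methyltransferase genes, neighbours and cell type markers were not analysed. Blocks to be named were the longest 5, the highest 5 and the 5 nearest each end. The exons, introns and islands named beside them were chosen after their values were seen.

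Kmt2c, its region and the lists were chosen with earlier results of these data known. With 1 group no contrast was tested. The alternatives are the density threshold, the window size, the block minimum, distinct starts, the nuclear total, the pseudocount, short blocks and leaving out each litter. Block finding was tested on simulated data. The tools were numpy 2.4.6, scipy 1.17.1, matplotlib 3.10.9 and pandas 2.3.3 under Python 3.11.15.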

Additional observations from a re-analysis of the deposited data

How the results depend on the processing

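Of 51 alternative values, 41 moved by less than the spread between litters (counts by less than 1.5 times) and 10 by more. Some of the 41 could not have moved by more. Leaving out a litter cannot shift a plain mean over the litters by that spread. Leaving out blocks under a mean coverage of 10 removed none. The mean level of the region was 5.18 RPKM, and 6.63 RPKM with the 100 highest windows left out of the nuclear total. The count of windows at 1 or more in all litters was 11 of 22. It was 18 at a threshold of 0.5, 21 with distinct start positions, 18 of 45 with windows of 5 kb and 6 of 11 with windows of 20 kb, where the number of windows itself differs. With a block minimum of 50 reads there were 31 blocks in place of 57, and 41.3% of aligned bases lay outside them in place of 25.3%. With distinct start positions 46.3% lay outside blocks. The slope on the distance from the 3′ end was -0.0740 ± 0.0411 per kb without blocks under 200 bases, against -0.0058 ± 0.0673. The spread over blocks was 19.6% with distinct starts, against 48.1%. The cause of these shifts was not tested.

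Leaving out each litter in turn gave a level of 4.40 to 5.75, 12 to 14 windows, 58 to 69 blocks, 20.01% to 24.2% outside blocks, a slope of -0.0522 to 0.0097 per kb and a spread of 35.6% to 45.8%. The slope was above 0 without litter 1. Windows and the bases in blocks need every litter to pass, so fewer litters can only add to them. The number of blocks could also fall, where neighbouring blocks join. No paired analysis was possible because there is 1 group. Alternatives with introns or exons in place of blocks were chosen after seeing the data. The number of distinct starts in a block is limited by its length, and exon margins are limited by the read length.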
